A study of Mus musculus with 12 samples.

Results

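Metallothioneins and the genes that move zinc and iron were followed in the lungs of newborn mice given bacterial endotoxin. The 10 genes were Mt1, Mt2, Gm45774, Slc39a14, Slc30a1, Hmox1, Fth1, Slc40a1, Tfrc and Slc11a1, taken by symbol from the 52550 genes of the count table. Of these, 9 are protein-coding and passed the filter on low counts, and Gm45774 is annotated as an antisense RNA and passed it among all annotated genes. The list was chosen by hand with the counts of these libraries after lipopolysaccharide (LPS) and PBS in view, and Gm45774 was selected on its rise after LPS, so the LPS values below are a description and carry no test.

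Each library was RNA of the whole lung of a C57Bl/6J mouse at postnatal day 5, and each of the 4 groups had 3 libraries. WT (Adm+/+) and Adm+/- mice, which lack a functional copy of the gene for the peptide hormone adrenomedullin in all cells, received LPS of Escherichia coli O55:B5 at 6 mg/kg or an equal volume of PBS. Injections were intraperitoneal, 3 in all, and lungs were collected 6 h after the last. Replicates carry their library numbers, which are 3 to 5 for WT PBS, 9 to 11 for WT LPS, 6 to 8 for Adm+/- PBS, and 1, 2 and 12 for Adm+/- LPS.

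Metallothioneins are small proteins whose cysteines hold zinc and copper, and their genes respond to metals, glucocorticoids and inflammatory cytokines. Zinc enters the cytosol through transporters of the Slc39 family and leaves it through those of the Slc30 family. Iron is taken up with transferrin, stored in ferritin, released from heme by heme oxygenase and exported by ferroportin, and during infection the host is known to withhold both metals from microbes.

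The coding sequences of Mt1 and Mt2 are shown because they display what makes a metallothionein. They were read from Gencode M21 (mm10), and cysteine codons (TGC and TGT) are in capitals.
Mt1: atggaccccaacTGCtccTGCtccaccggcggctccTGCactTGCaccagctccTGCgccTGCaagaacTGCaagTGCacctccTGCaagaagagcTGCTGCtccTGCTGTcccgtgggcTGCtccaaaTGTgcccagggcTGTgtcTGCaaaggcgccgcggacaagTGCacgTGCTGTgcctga
Mt2: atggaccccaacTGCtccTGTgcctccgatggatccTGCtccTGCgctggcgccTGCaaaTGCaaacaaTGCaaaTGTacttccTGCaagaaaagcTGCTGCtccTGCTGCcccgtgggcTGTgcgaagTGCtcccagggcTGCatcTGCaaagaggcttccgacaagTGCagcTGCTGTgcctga
Each has 61 codons before the stop, of which 20 (32.8%) encode cysteine, and all 20 stand at the same place in both genes. The sequences were identical at 148 of 186 bases (79.6%), and the longest identical run was 20 bases.

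The promoters of Mt1, Mt2 and Slc30a1 are shown because all 3 genes are known targets of the zinc-sensing factor Mtf1, which binds metal response elements. Each is the 250 bases before the RefSeq start on the plus strand of GRCm38.p6, with matches to TGCACNC or TGCGCNC on either strand in capitals.
Mt1, chr8:94178839-94179088: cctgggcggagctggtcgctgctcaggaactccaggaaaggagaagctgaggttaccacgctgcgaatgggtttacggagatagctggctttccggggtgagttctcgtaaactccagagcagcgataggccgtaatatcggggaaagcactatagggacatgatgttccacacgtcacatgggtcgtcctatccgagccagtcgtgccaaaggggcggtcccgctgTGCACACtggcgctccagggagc
Mt2, chr8:94172368-94172617: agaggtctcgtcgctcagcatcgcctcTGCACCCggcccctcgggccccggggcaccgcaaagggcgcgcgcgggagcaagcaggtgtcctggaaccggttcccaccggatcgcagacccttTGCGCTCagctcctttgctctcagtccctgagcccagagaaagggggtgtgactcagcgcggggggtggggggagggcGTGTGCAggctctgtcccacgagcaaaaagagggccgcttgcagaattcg
Slc30a1, chr1:191906531-191906780: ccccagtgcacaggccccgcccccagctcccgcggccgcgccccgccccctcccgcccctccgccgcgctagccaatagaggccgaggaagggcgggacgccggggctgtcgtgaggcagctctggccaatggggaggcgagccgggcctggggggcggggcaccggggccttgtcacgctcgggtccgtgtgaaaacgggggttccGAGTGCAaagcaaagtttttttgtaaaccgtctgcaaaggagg
In the whole window of 300 bases, which runs on past the start, Mt1 held 3 matches, Mt2 held 4 and Slc30a1 held 2. The printed bases hold 1 of the 3 in Mt1, 3 of the 4 in Mt2 and 1 of the 2 in Slc30a1. The rest reach past the RefSeq start, so the printed stretch, for Mt1 above all, does not show every match near the gene and depends on the start used. Among 32851 RefSeq promoter windows of that length, 25.7% held at least 1 match, 7.11% at least 2 and 1.97% at least 3. A match to these letters is a description of the sequence and not a site in use. Windows were given for 6 of the 10 genes. Of the 2 windows of Tfrc, 1 held 2 matches, which overlap, and the other held none, and those of Fth1 and Slc11a1 held no match.

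Fth1, Slc40a1 and Tfrc carry iron-responsive elements, short RNA hairpins bound by the iron regulatory proteins. Before the coding sequence such a hairpin blocks translation when iron is low, and after it the hairpins protect the transcript from decay. The search took a C, 5 bases, a loop of CAGTG followed by A, C or T, and 5 bases that pair with the first 5. Pairs of G with T were allowed, and the loop is in capitals.
Fth1, before the coding sequence: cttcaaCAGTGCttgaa
Slc40a1, before the coding sequence: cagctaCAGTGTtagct
Tfrc, after the coding sequence: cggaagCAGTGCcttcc
Tfrc, after the coding sequence: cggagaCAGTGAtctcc
Tfrc, after the coding sequence: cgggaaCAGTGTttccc
Tfrc, after the coding sequence: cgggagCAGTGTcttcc
Of 21901 genes with a protein-coding transcript, 222 (1.01%) had a match, and 1 had 3 or more in a transcript. The counts measure transcript levels, so control of translation through these hairpins lies outside them.

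Total counts per library ranged from 22382535 to 38062873. WT PBS replicate 5 and Adm+/- PBS replicate 6 stood apart, with a protein-coding share of 77.8% and 80.1%, where the remaining 10 had 84.3% to 87.6%. WT PBS replicate 5 was the lowest of its group for all 10 genes, while over the 15885 genes tested it was the lowest for 42.6%. Among WT LPS libraries, replicate 11 was the lowest for 6 of the 10 genes (34.1% of all genes tested) and replicate 9 the highest for 8 (35.4%). Summed markers of type II pneumocytes, the surfactant-making cells of the lung, stood between 13157 and 16826 CPM in all 12 libraries. Summed lung fibroblast markers were 6506 to 19032 CPM in WT PBS, 4205 to 6257 CPM in WT LPS, 6037 to 12593 CPM in Adm+/- PBS and 4522 to 5573 CPM in Adm+/- LPS. The targeted gene Adm averaged 5.21 CPM in WT PBS and 3.69 CPM in Adm+/- PBS (log2 fold change −0.50, adjusted p = 0.999 from edgeR), and 6.79 CPM in WT LPS against 4.65 CPM in Adm+/- LPS (−0.55, adjusted p = 0.480 from edgeR). Levels are CPM, that is counts scaled to library size with edgeR's TMM correction, given as the mean ± SD of the 3 libraries of a group.

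**Figure D1:**
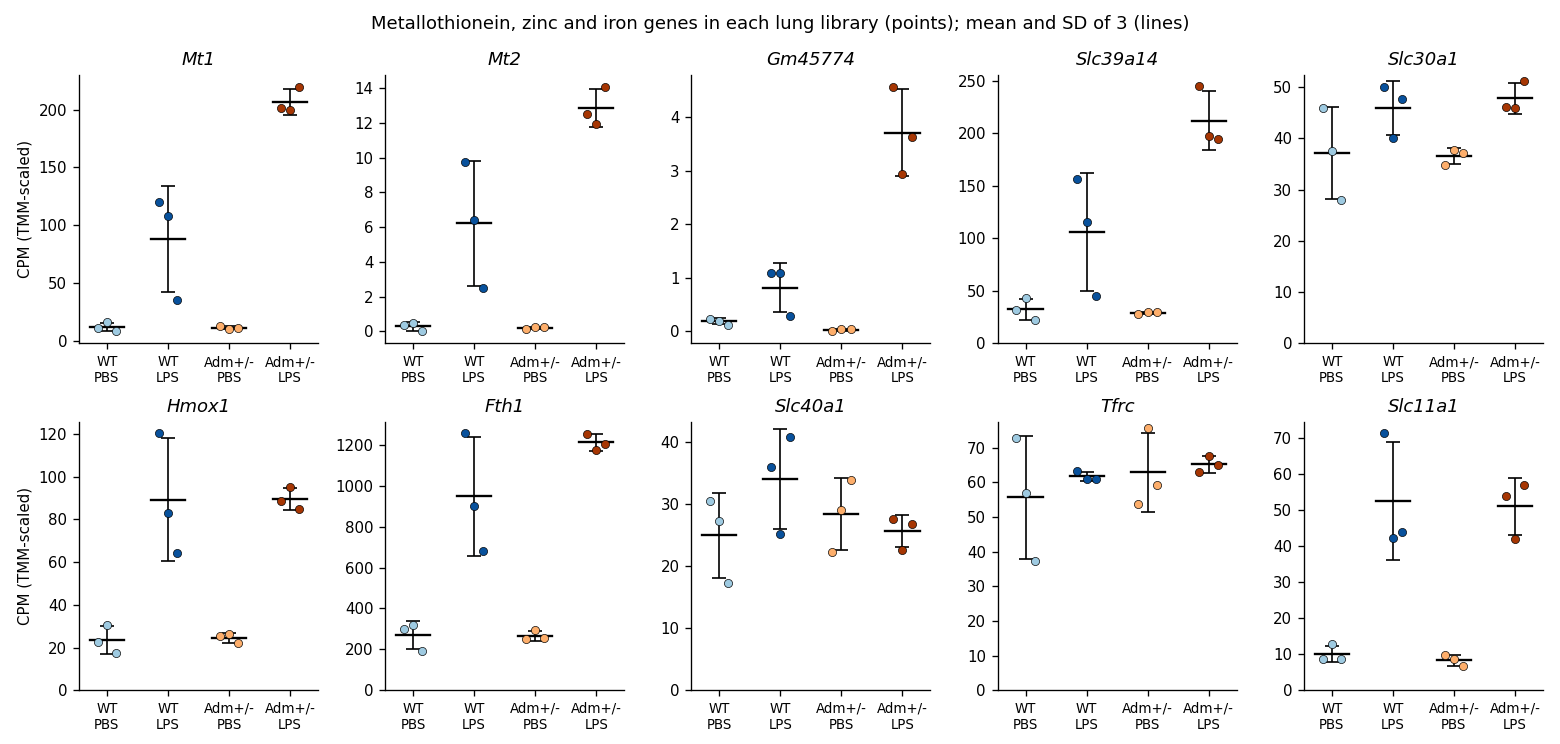
The level of each gene in CPM (linear vertical axes) in the 12 lung libraries, with a point per library and lines for the mean and SD of the 3 libraries in a group. Mt1, Mt2 and Slc39a14 are higher in every Adm+/- LPS library than in any WT LPS library, and Tfrc stays between 37.2 and 75.6 CPM throughout.

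Mt1, a broadly expressed metallothionein, lies on chromosome 8 of mm10 from 94179082 to 94180327. WT lungs measured 11.3, 15.9 and 8.52 CPM after PBS and 119.7, 108 and 35.01 CPM after LPS, in the order of the replicate numbers, which all values below follow. Adm+/- lungs measured 12.8, 9.83 and 11.2 CPM after PBS and 201, 199.8 and 219.6 CPM after LPS. LPS and PBS libraries did not overlap in either genotype, and WT LPS replicate 11 was far below the other LPS libraries. The log2 fold change after LPS was 2.88 (standard error 0.39) in WT and 4.20 (standard error 0.41) in Adm+/- mice.

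Mt2, the other broadly expressed metallothionein, lies 5513 bases before Mt1 on the same strand. It had 9, 10 and 0 counts in the WT PBS libraries and 2, 7 and 6 counts in the Adm+/- PBS libraries. After LPS the WT libraries had 316, 154 and 63 counts and the Adm+/- libraries 335, 285 and 395 counts. In CPM the group means were 0.278 ± 0.250 in WT PBS, 6.22 ± 3.62 in WT LPS, 0.193 ± 0.0764 in Adm+/- PBS and 12.8 ± 1.10 in Adm+/- LPS. PBS libraries were close to 0 in both genotypes, and none overlapped an LPS library. From summed counts the ratio of LPS to PBS was 21.5 in WT (95% counting interval 13.6 to 35.995) and 63.4 in Adm+/- mice (38.3 to 114), and these intervals cover counting error only.

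Gm45774 lies on the minus strand of chromosome 8 from 94170748 to 94173412 and runs across most of Mt2. WT lungs gave 6, 4 and 2 counts after PBS and 35, 26 and 7 counts after LPS. Adm+/- lungs gave 0, 1 and 1 counts after PBS and 122, 70 and 102 counts after LPS. Its counts were thus few everywhere and largest in Adm+/- LPS, at 3.71 ± 0.818 CPM against 0.813 ± 0.463 CPM in WT LPS. From summed counts the ratio of LPS to PBS was 4.34 in WT (95% counting interval 2.33 to 8.82) and 138 in Adm+/- mice (37.8 to 1143), where the PBS sum was 2 counts. At least 10 counts were reached in all 3 Adm+/- LPS libraries and in 2 of the other 9, so the gene passed the filter on low counts through Adm+/- LPS, and its contrasts are given as a description without a test.

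How the reads were divided between Mt2 and Gm45774 limits both values. Of the 588 exon bases of Mt2, 432 (73.5%) are shared with Gm45774 on the other strand, and the remaining 156 lie past its end. The library kit keeps strand, yet of 79 genes whose exons lie wholly within exons of a well-covered gene on the other strand, 77 (97.5%) had 0 counts in all 12 libraries. Among 5268 antisense and long intergenic RNA genes that share no exon base, 29.2% had 0 counts. This is the pattern that results when strand is not used and reads on shared bases are dropped. In that case the Mt2 counts would come from the 156 unshared bases, and the Gm45774 counts from reads of either strand on 1916 bases before Mt2 and 317 bases in its introns. Whether the Gm45774 reads are antisense cannot be told from these counts. The printed Mt2 promoter also lies within the annotated Gm45774 exon.

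**Figure D2:**
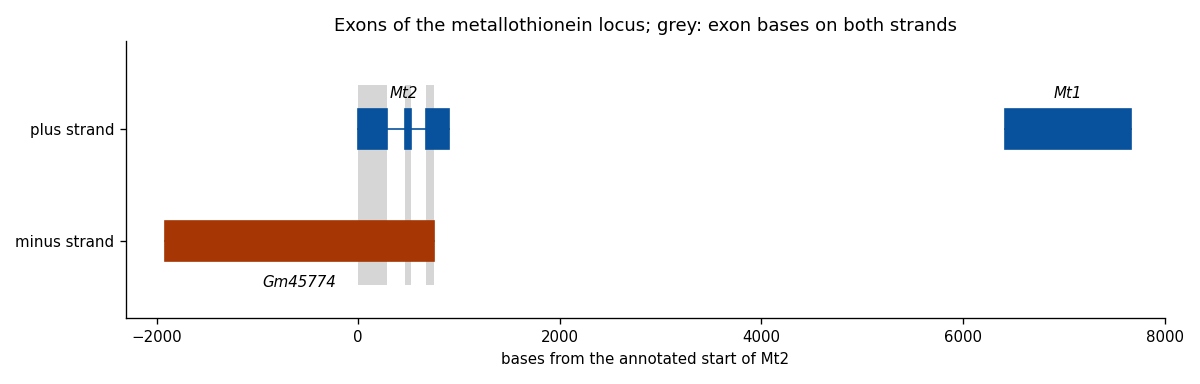
Exon blocks of Mt2 and Mt1 (plus strand, blue) and Gm45774 (minus strand, brown) by distance in bases from the annotated start of Mt2, with exon bases shared by both strands in grey. Only the last 156 bases of Mt2 lie outside Gm45774, and Mt1 starts 5513 bases past the end of Mt2.

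The count ratio of Mt1 to Mt2 was 13.8 in WT LPS and 16.1 in Adm+/- LPS. The ratio of Mt2 to Gm45774 was 7.84 in WT LPS and 3.45 in Adm+/- LPS. Both are ratios of raw counts without correction for the lengths of the genes, so they do not compare the levels of 2 genes. In the PBS groups the Mt2 sums of 19 and 15 counts leave these ratios poorly determined.

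Slc39a14 carries zinc, manganese and iron that is not bound to transferrin into cells, and lies on the minus strand of chromosome 14 from 70303469 to 70351425. It measured 32.1, 42.9 and 22.6 CPM after PBS and 156, 116 and 45.4 CPM after LPS in WT lungs. In Adm+/- lungs it measured 28.2, 29.6 and 29.7 CPM after PBS and 245, 198 and 194 CPM after LPS. In WT the lowest LPS library, replicate 11, was just above the highest PBS library, whereas in Adm+/- mice the treatments were far apart. The log2 fold change after LPS was 1.70 (standard error 0.36) in WT and 2.86 (standard error 0.37) in Adm+/- mice.

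Slc30a1, the zinc exporter of the plasma membrane, lies on chromosome 1 from 191906767 to 191913247 and shares 468 of its 5244 exon bases with 1700034H15Rik on the other strand. It stood at 45.9, 37.5 and 28.04 CPM in WT lungs given PBS and at 49.96, 40.004 and 47.6 CPM in those given LPS. Adm+/- lungs gave 34.8, 37.6 and 37.1 CPM without LPS and 46.1, 45.96 and 51.2 CPM with it. The treatments overlapped in WT and lay apart in Adm+/- mice. The log2 fold changes were 0.30 (standard error 0.16) and 0.39 (standard error 0.16) in WT and Adm+/- mice.

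Hmox1, the inducible heme oxygenase that frees iron from heme, lies on chromosome 8 from 75093621 to 75100589. It measured 22.4, 30.4 and 17.4 CPM after PBS and 121, 82.8 and 64.2 CPM after LPS in WT lungs. In Adm+/- lungs it measured 25.3, 26.3 and 21.9 CPM after PBS and 88.4, 95.4 and 85.0 CPM after LPS. LPS libraries were above PBS libraries in both genotypes, and the mean after LPS was 89.2 ± 28.8 CPM in WT and 89.6 ± 5.26 CPM in Adm+/- mice. The log2 fold change was 1.93 (standard error 0.23) in WT and 1.87 (standard error 0.23) in Adm+/- mice.

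Fth1, the ferritin heavy chain, lies on chromosome 19 from 9980598 to 9985098 and was the most abundant of these transcripts. It stood at 301, 318 and 191 CPM in WT lungs given PBS and at 1261, 902 and 683 CPM in those given LPS. Adm+/- lungs gave 249, 293 and 255 CPM without LPS and 1256, 1177 and 1205 CPM with it. The treatments lay apart in both genotypes, with the widest spread in WT LPS. LPS over PBS gave a log2 fold change of 1.81 (standard error 0.22) in WT and 2.19 (standard error 0.23) in Adm+/- mice. Fth1 has processed pseudogenes, and the handling of reads that map to several places is not given in the sources used here, so its level is uncertain to that extent.

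Slc40a1 encodes ferroportin, the iron exporter, and lies on the minus strand of chromosome 1 from 45908068 to 45926523. It measured 30.4, 27.2 and 17.2 CPM after PBS and 35.96, 25.1 and 40.8 CPM after LPS in WT lungs. In Adm+/- lungs it measured 22.3, 29.0 and 33.8 CPM after PBS and 27.5, 22.6 and 26.7 CPM after LPS. All groups overlapped. The log2 fold change after LPS was 0.44 (standard error 0.23) in WT and −0.15 (standard error 0.23) in Adm+/- mice.

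Tfrc, the receptor that takes up iron bound to transferrin, lies on chromosome 16 from 32608920 to 32632794. It stood at 72.9, 56.8 and 37.2 CPM in WT lungs given PBS and at 63.3, 60.9 and 61.1 CPM in those given LPS. Adm+/- lungs gave 53.7, 75.6 and 59.3 CPM without LPS and 62.9, 67.7 and 65.0 CPM with it. The LPS libraries of each genotype lay within the range of its PBS libraries. The log2 fold change was 0.15 (standard error 0.20) in WT and 0.05 (standard error 0.20) in Adm+/- mice, and both were below 0 without WT PBS replicate 5 and Adm+/- PBS replicate 6 (−0.075 and −0.049).

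Slc11a1, a divalent metal transporter of the phagosome in macrophages and neutrophils, lies on chromosome 1 from 74375195 to 74386062. C57BL/6 mice are known to carry an allele of it that impairs function. It measured 8.82, 12.8 and 8.59 CPM after PBS and 71.4, 42.3 and 44.0 CPM after LPS in WT lungs. In Adm+/- lungs it measured 9.68, 8.62 and 6.68 CPM after PBS and 54.1, 42.1 and 57.2 CPM after LPS. LPS libraries were well above PBS libraries in both genotypes, with log2 fold changes of 2.39 (standard error 0.24) in WT and 2.62 (standard error 0.25) in Adm+/- mice.

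Every LPS library lay above every PBS library for 6 of the 9 protein-coding genes in WT mice, where 18.3% of the 15885 genes tested did so, and for 7 of the 9 in Adm+/- mice, where 26.6% did. The 6 were Mt1, Mt2, Slc39a14, Hmox1, Fth1 and Slc11a1 in both genotypes, joined by Slc30a1 in Adm+/- mice. The median log2 fold change of the 9 was 1.81 in WT and 2.19 in Adm+/- mice, against 0.01 and −0.01 over all genes tested. These counts and medians describe genes chosen with the LPS values in view, and nothing is read from their distance to the background.

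**Figure D3:**
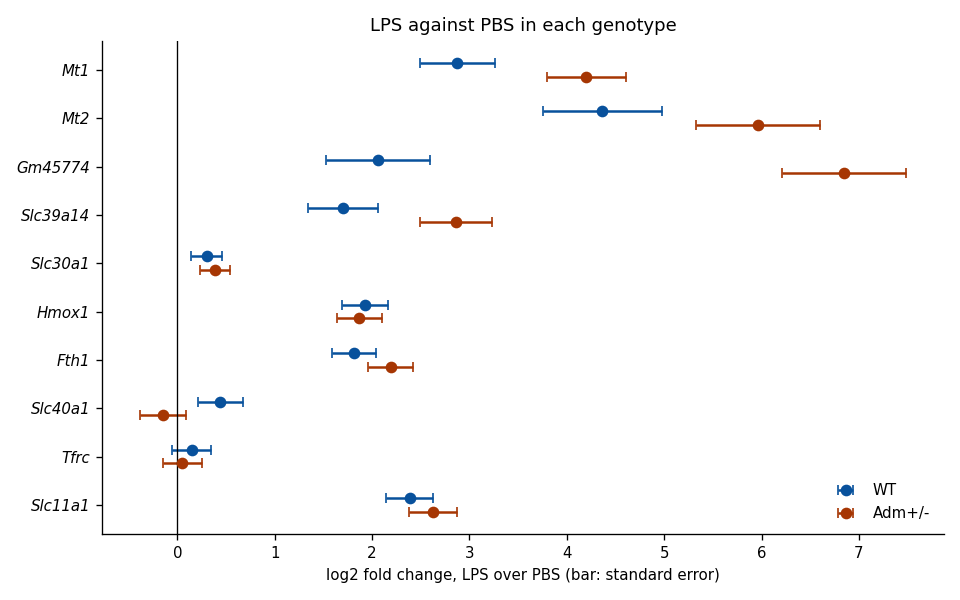
Log2 fold change of LPS over PBS (horizontal axis) for each gene in WT (blue) and Adm+/- (brown) mice, with bars of 1 standard error. Mt1, Mt2, Gm45774 and Slc39a14 lie farther to the right in Adm+/- than in WT mice, whereas Hmox1 lies at 1.93 and 1.87.

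Markers of other cells moved with the LPS values. Calls are those of edgeR's quasi-likelihood test, with an adjusted p (Benjamini-Hochberg) under 0.05 and a log2 fold change beyond 0.5 in either direction. The summed level of 10 neutrophil markers was 36.01 to 155 CPM in WT PBS, 1409 to 2363 CPM in WT LPS, 32.6 to 54.2 CPM in Adm+/- PBS and 1409 to 1675 CPM in Adm+/- LPS. Of the 9 neutrophil markers tested, 8 rose in WT and 9 in Adm+/- mice. The summed level of 10 monocyte and macrophage markers was 1036 to 1277 CPM in WT PBS, 1659 to 2285 CPM in WT LPS, 1011 to 1231 CPM in Adm+/- PBS and 1693 to 2240 CPM in Adm+/- LPS. Of these 10 markers, 9 rose in WT and 8 in Adm+/- mice, and no marker of either list was at 0 in all libraries. Markers of squamous epithelium also moved, and 8 of 8 tested were higher after LPS in WT mice and 4 were lower in Adm+/- LPS than in WT LPS. Their sum was 3351, 34.5 and 1724 CPM in WT LPS replicates 9, 10 and 11 and 5.87 to 49.2 CPM in the other 9 libraries, and none was at 0 in all libraries. Skeletal muscle markers summed to 6.89 to 15.7 CPM in WT PBS and 334 to 1075 CPM in WT LPS, with 7 of 7 tested higher, and to 6.21 to 9.14 CPM in Adm+/- PBS and 12.4 to 25.6 CPM in Adm+/- LPS, with 1 of 7 higher. Endothelial markers summed to 3086 to 3711 CPM in WT PBS, 2719 to 2794 CPM in WT LPS, 3106 to 3463 CPM in Adm+/- PBS and 2941 to 3290 CPM in Adm+/- LPS, and 2 of 8 fell in each genotype. The part of these cells in the values of the metal genes was not tested. In RNA of whole lung, more cells of a type and more RNA per cell cannot be told apart.

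Levels of different genes are compared per kilobase of exon, as CPM per kb. In Adm+/- LPS, Fth1 was highest at 349.5 ± 11.5 CPM per kb, followed by Mt1 at 166 ± 8.90 and Hmox1 at 51.2 ± 3.00 CPM per kb. Mt2 had 21.8 ± 1.87 CPM per kb over its whole exon length and 82.4 ± 7.06 CPM per kb over the 156 unshared bases, a length chosen after the overlap had been seen. Slc39a14 had 20.1 ± 2.67, Slc11a1 13.8 ± 2.14, Tfrc 10.5 ± 0.389, Slc30a1 9.11 ± 0.567, Slc40a1 2.85 ± 0.291 and Gm45774 1.39 ± 0.307 CPM per kb. Mt2 over its whole length and Slc39a14 did not differ beyond their spread, and the other neighbours in this order were separated by more than the larger SD. In WT PBS the order began with Fth1 at 77.9 ± 19.9, Hmox1 at 13.4 ± 3.75 and Mt1 at 9.55 ± 3.00 CPM per kb, and Tfrc at 8.99 ± 2.88 CPM per kb was within the spread of the latter. By these lengths Mt1 stood above Hmox1 in Adm+/- LPS and within the spread of Tfrc in WT PBS. The exon length of Mt1 merges its annotated transcripts into 1 block of 1246 bases, which covers the whole span of the gene. Mt2 has 3 blocks and 588 bases. A shorter transcript would give Mt1 a higher level per kb, so its place in both orders depends on the length used.

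The genotypes were compared next. Genotype is not named in the rule that chose the genes, but the choice was made with earlier results of these data known, and these contrasts share libraries with the LPS contrasts. After PBS, 0 of the 9 protein-coding genes were called between Adm+/- and WT mice, where 0.0% of the genes tested were called (2.17% at an unadjusted p under 0.05). None of the 9 had an unadjusted p under 0.05, and DESeq2 and limma-voom called 0 as well. Their log2 fold changes ran from −0.55 for Mt2 to 0.18 for Slc40a1, with an adjusted p of 0.999 from edgeR for each. Gm45774 had 12 counts in WT PBS and 2 in Adm+/- PBS.

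After LPS, 0 of the 9 protein-coding genes were called between genotypes by edgeR, where 2.05% of the genes tested were called. Mt1, Mt2 and Slc39a14 had an unadjusted p under 0.05 (14.3% of all genes tested), limma-voom called 0, and DESeq2, which called 5.06% of all genes tested, called Mt1. Mt1 averaged 207 ± 11.1 CPM in Adm+/- LPS and 87.6 ± 45.9 CPM in WT LPS, a log2 fold change of 1.24 with a standard error of 0.36 (the adjusted p was 0.102 in edgeR and 0.0139 in DESeq2). When single libraries were left out its adjusted p in edgeR ranged from 0.0667 to 0.262. Slc39a14 averaged 212 ± 28.1 and 106 ± 56.2 CPM, with a log2 fold change of 1.001 and a standard error of 0.35 (edgeR's adjusted p was 0.188). For Mt2 the log2 fold change was 1.04, its standard error 0.45 and its adjusted p in edgeR 0.311. These sizes moved most with the WT LPS libraries. Without replicate 11 the log2 fold change was 0.86 for Mt1, 0.67 for Mt2 and 0.64 for Slc39a14, and without replicate 9 it was 1.53, 1.53 and 1.398.

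For these 3 genes every Adm+/- LPS library was above every WT LPS library. Such a separation, with Adm+/- higher, was found for 12.2% of all genes tested. The other 6 overlapped between genotypes. Between genotypes after LPS the log2 fold change was 0.35 for Fth1 (standard error 0.22, with 0.541 as edgeR's adjusted p) and −0.41 for Slc40a1 (standard error 0.23, with 0.495), and Hmox1, Slc30a1, Tfrc and Slc11a1 lay between −0.04 and 0.08. The median of the 9 was 0.08, against −0.0042 over all genes tested. Of the skeletal muscle markers given above, 7 of 7 tested were lower in Adm+/- LPS than in WT LPS, beside the 4 squamous epithelium markers noted above. Their part in the genotype differences was not tested.

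Gm45774 measured 4.56, 2.93 and 3.63 CPM in the Adm+/- LPS libraries and 1.08, 1.08 and 0.279 CPM in the WT LPS libraries. The genotypes did not overlap, and the log2 fold change was 2.17 with a standard error of 0.39. Such a separation, with Adm+/- higher, was found for 11.2% of the 23051 annotated genes tested. The gene passed the filter through Adm+/- LPS, so nothing is read from its separation. Its counts are reads over the locus, whose strand cannot be told from them.

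**Figure D4:**
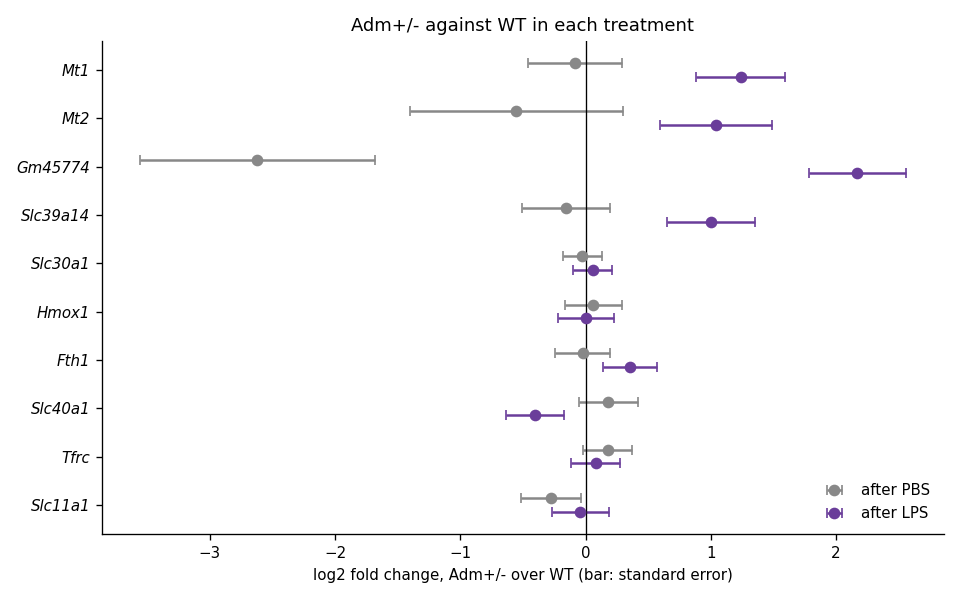
Log2 fold change of Adm+/- over WT (horizontal axis) for each gene after PBS (grey) and after LPS (purple), with bars of 1 standard error. After LPS, Mt1, Mt2, Gm45774 and Slc39a14 lie at 1.001 or above. None of the 9 protein-coding genes was called by edgeR, and no test is reported for Gm45774.

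The difference between genotypes in the LPS response was tested as an interaction. It called 0 of the 9 protein-coding genes, where 0.145% of the genes tested were called, and DESeq2 and limma-voom also called 0. Of the 9, Mt1 and Slc39a14 had an unadjusted p under 0.05, as did 7.85% of the genes tested. In log2 units the interaction was 1.32 for Mt1 (standard error 0.52, adjusted p = 0.521 from edgeR), 1.16 for Slc39a14 (standard error 0.50, adjusted p = 0.591 from edgeR) and 1.59 for Mt2 (standard error 0.97, adjusted p = 0.806 from edgeR). It was 0.38 for Fth1 (adjusted p = 0.920 from edgeR), −0.06 for Hmox1 (adjusted p = 0.996 from edgeR) and −0.59 for Slc40a1 (adjusted p = 0.747 from edgeR). The larger metallothionein and Slc39a14 responses of Adm+/- mice were therefore not shown to differ from those of WT mice.

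The wider set of genes for zinc, iron, heme and copper was then examined. It comprised 10 lists, which without the 10 genes above hold 97 genes of the count table, of which 89 were tested. After LPS 16 of the 89 rose and 3 fell in WT mice, and 23 rose and 6 fell in Adm+/- mice. Over all genes tested, 17.6% were called in WT mice (10.5% rose and 7.09% fell) and 25.0% in Adm+/- mice (12.8% rose and 12.2% fell). The median log2 fold change of the 89 was 0.11 in WT and 0.12 in Adm+/- mice.

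**Figure D5:**
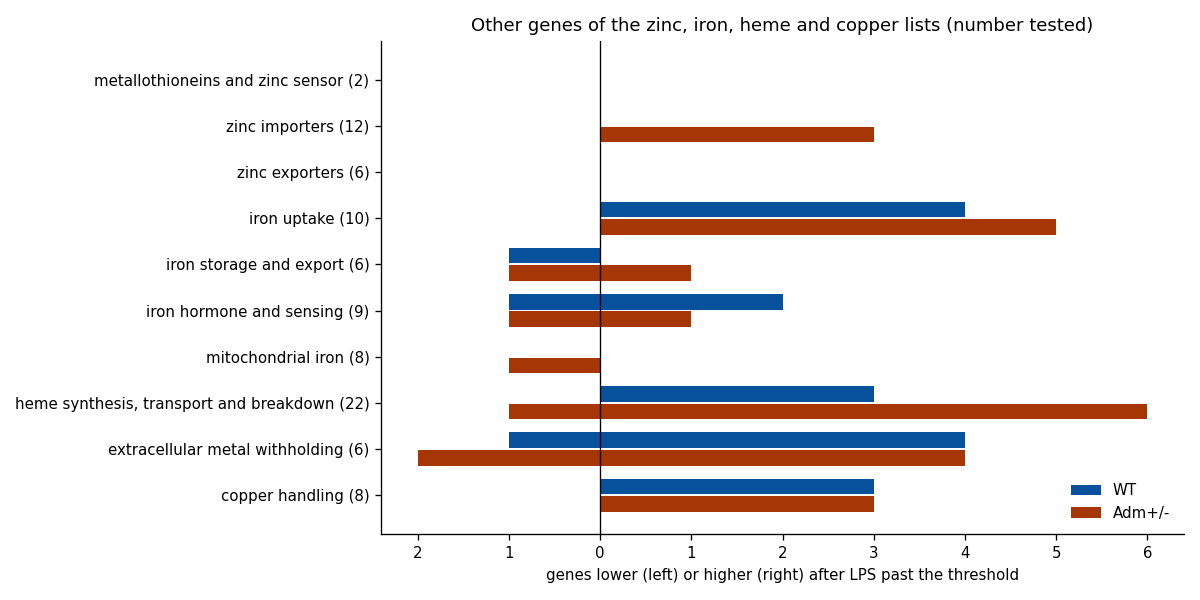
Number of other genes in each of the 10 lists that were called higher (right) or lower (left) after LPS in WT (blue) and Adm+/- (brown) mice, with the number tested in parentheses. No other metallothionein and no other zinc exporter was called, and the withholding list has 4 called higher in each genotype, 1 called lower in WT and 2 in Adm+/- mice.

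On the extracellular metal-withholding list, 4 of 6 genes rose in both genotypes, 1 fell in WT and 2 fell in Adm+/- mice. Of all genes tested, 10.5% rose and 7.09% fell in WT, and 12.8% rose and 12.2% fell in Adm+/- mice. S100a8 and S100a9, which form the zinc- and manganese-binding protein calprotectin, averaged 15.3 and 24.5 CPM in WT PBS and 552 and 645 CPM in WT LPS. S100a8 had log2 fold changes of 5.17 in WT and 5.86 in Adm+/- mice, and S100a9 of 4.71 and 5.49. Lcn2, which binds the iron carriers of bacteria, rose from 40.002 to 636 CPM in WT and from 31.6 to 1365 CPM in Adm+/- mice. Ltf, the iron-binding protein lactoferrin, had a log2 fold change of 4.19 in WT mice, with an adjusted p of 8.98e-05 in edgeR. Those that fell were Bdh2, with log2 fold changes of −1.20 in WT and −1.24 in Adm+/- mice, and in Adm+/- mice Slc22a17, a receptor for Lcn2 (−1.06), both named after their values were seen. S100a8 and S100a9 are also on the neutrophil list, whose sums are given above, and the part of neutrophils in this list was not tested.

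On the iron uptake list, 4 of 10 genes rose in WT and 5 of 10 in Adm+/- mice, and none fell, where 10.5% and 12.8% of all genes tested rose. Steap4, a metalloreductase, had the largest change, rising from 15.1 to 167 CPM in WT, and in Adm+/- mice from 5.86 to 389 CPM with a log2 fold change of 6.04 (edgeR's adjusted p was 0.000202). The other 3 that rose in both genotypes were Steap2, Scara5, a ferritin receptor, and Slc11a2, an iron importer, named here after their values were seen. On the heme list, 3 of 22 genes rose in WT, a share near the 10.5% of all genes tested, and 6 rose and 1 fell in Adm+/- mice, where 12.8% and 12.2% did. Spic, a transcription factor of iron-recycling macrophages, rose with log2 fold changes of 4.08 in WT and 5.37 in Adm+/- mice, from means of 0.557 and 0.266 CPM.

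Among 12 zinc importers besides Slc39a14 none was called by edgeR in WT mice, where 17.6% of all genes tested were, and 3 rose in Adm+/- mice, where 12.8% did. The 3 were Slc39a1 (log2 fold change 0.78), Slc39a4 (0.75) and Slc39a8 (0.56), named after their values were seen. Among 6 zinc exporters other than Slc30a1 0 were called in either genotype by edgeR. Mtf1 itself had 35.2 CPM in WT PBS, 37.8 CPM in WT LPS, 35.8 CPM in Adm+/- PBS and 38.1 CPM in Adm+/- LPS. The other ferritin subunit, Ftl1, had 335 CPM in WT PBS and 411 CPM in WT LPS, a log2 fold change of 0.29 (adjusted p = 0.158 from edgeR), and 344 and 388 CPM in Adm+/- mice. Mtf1 and Ftl1 were named after their values were seen.

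Between genotypes, 0 of the 89 were called after PBS by edgeR, DESeq2 or limma-voom, with 5 at an unadjusted p under 0.05 in edgeR, where 0.0% of all genes tested were called and 2.17% were under 0.05. The smallest p belonged to Atp7b, a copper exporter (log2 fold change −0.46), Steap3, a ferrireductase of erythroid cells (−0.55), and Cd163, the macrophage receptor for hemoglobin bound to haptoglobin (−0.75), each with an adjusted p of 0.999 from edgeR. After LPS edgeR called 3 of the 89 lower in Adm+/- than in WT mice and 0 higher, where it called 1.72% and 0.327% of the genes tested lower and higher. DESeq2, which called 5.06% of all genes tested, called 5, which were Cd163, Hfe2, Hpx, Slc11a2 and Steap3. Of these, Hpx and Slc11a2 were higher in Adm+/- LPS, with log2 fold changes of 1.03 and 0.50 in edgeR, which called neither. limma-voom called Cd163 and Hfe2.

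Cd163 ranged from 5.57 to 8.56 CPM in WT LPS and from 2.36 to 2.89 CPM in Adm+/- LPS (log2 fold change −1.53, standard error 0.23, adjusted p = 0.00541 from edgeR). The genotypes were apart, and the call held in all 20 alternative fits, with an adjusted p of at most 0.0467. Atp7b averaged 98.8 CPM in WT LPS against 69.8 CPM in Adm+/- LPS (log2 fold change −0.50, adjusted p = 0.0451 from edgeR), and its call held in 3 of the 20. Hfe2, which encodes hemojuvelin, a BMP co-receptor of skeletal muscle and liver that raises hepcidin expression, ranged from 7.93 to 12.1 CPM in WT LPS and from 1.46 to 1.89 CPM in Adm+/- LPS (log2 fold change −2.57, adjusted p = 0.0148 from edgeR). Its call held in 17 of the 20, and was lost without Adm+/- LPS replicate 1, 2 or 12.

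The skeletal muscle markers given above moved with all 3 genes in this contrast, and with Hfe2 and Atp7b also in the LPS contrast of WT mice. In Adm+/- mice Atp7b rose after LPS as well (log2 fold change 0.94, and 0.99 in WT), where 1 of 7 muscle markers rose. Between genotypes after PBS, Atp7b was at −0.46 and Cd163 at −0.75, neither called, and 0 of the 7 muscle markers were called. No skeletal muscle marker was at 0 in all libraries. Their part in the values of Cd163, Atp7b and Hfe2 was not tested. Summed liver markers, of which Hfe2 is not a part, were 29.7 to 84.7 CPM in WT LPS and 25.7 to 42.97 CPM in Adm+/- LPS.

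For the interaction, 0 of the 89 were called by edgeR, where 0.145% of all genes tested were, with 11 at an unadjusted p under 0.05 (7.85% of all genes tested), and DESeq2, which called 1.06% of them, called Hpx. Hpx, the heme carrier of plasma, averaged 2.23 CPM in WT PBS, 3.03 CPM in WT LPS, 1.22 CPM in Adm+/- PBS and 6.22 CPM in Adm+/- LPS, and its log2 interaction was 1.86 with a standard error of 0.41 (edgeR's adjusted p was 0.176). Hfe2 (−2.12) and Slc11a2 (0.55) followed, each with an adjusted p of 0.401 from edgeR.

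The genes whose profile over the 12 libraries was most like that of a given gene were found by the root mean square difference of log2 CPM, centred on each gene's mean, among 15885 genes. For Mt2 these were Lcn2 (0.38), Slc7a11, a cystine importer (0.39), and Ccl3, a chemokine (0.46), where the median gene was at 2.64. For Gm45774 they were Frmd5 (0.42), Saa4 (0.50) and Cd14, a co-receptor for LPS (0.52). For Slc40a1, whose own profile varied little, they were Slc38a6 (0.11), Wwp1 (0.12) and Mpv17l (0.13), where the median gene was at 0.45. With a prior count of 0.5 in place of 2, Ccl3 remained among the 3 for Mt2, 0 of the 3 remained for Gm45774, and all 3 remained for Slc40a1.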

How the data were processed

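RNA of 12 mouse lungs was sequenced, 3 per group. The authors trimmed reads with Trim Galore, aligned them to mm10 with HISAT2 and deposited whole-number raw counts per gene from featureCounts, without normalization. The strand and multi-mapping settings and the Gencode release are not given in the sources used here. Of 52550 genes, 52403 (99.7%) were found in Gencode M21, which gave positions, exon lengths and transcripts, and RefSeq (GRCm38.p6) gave promoters.

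Counts of 15885 protein-coding genes passing filterByExpr were scaled by TMM and tested with edgeR 4.0.16 in R 4.3.3 (glmQLFit and glmQLFTest, 1 coefficient per group, all 12 libraries, Benjamini-Hochberg over all genes tested). Gm45774 came from the same fit on 23051 annotated genes, and the genotype tests planned for it are not reported, since it passed the filter through the group where it was high. Standard errors are the log2 fold change divided by the square root of F. limma 3.58.1 and DESeq2 1.42.0 were alternatives, and the scripts were tested on simulated data. Replicates are separate mice. All 12 pairs of libraries of a group differed beyond sampling noise. Counting intervals are exact (conditional binomial, 95%) and cover counting error only, since reads carry no molecular identifiers.

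The genes and the metal and marker lists were chosen with earlier results of these data known. Other list genes were named where they had up to 5 largest changes after LPS among called genes with a mean of at least 1 CPM, or up to 3 smallest p in the other 3 contrasts, except where the text says otherwise. The profile comparison used a prior count of 2.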

Additional observations from a re-analysis of the deposited data

How the results depend on the processing

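No paired analysis was possible because the sample labels give no litter or pairing, and the replicate numbers are library numbers. Under 7 other settings (RLE size factors, glmTreat against 0.5, no filter on low counts, all annotated genes, limma-voom, DESeq2 and only the 6 libraries compared), without each library in turn, and without WT PBS replicate 5 and Adm+/- PBS replicate 6 together, 1121 recomputed values kept their direction and side of the threshold (counts within 1.5 times) and the 60 that did not are given here, those without single libraries as ranges. The causes were not tested.

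By glmTreat, 11 other metal genes were called after LPS in WT mice (19 by the quasi-likelihood test) and 18 in Adm+/- mice (29), where glmTreat called 6.3% and 10.7% of all genes tested (17.6% and 25.0% by the quasi-likelihood test). By DESeq2, 1 was called in the interaction, and between genotypes after LPS 1 of the 9 coding genes and 5 other metal genes (3), where DESeq2 called 1.06% and 5.06% of all genes tested (0.145% and 2.05% by edgeR). The 5 were Cd163, Hfe2, Hpx, Slc11a2 and Steap3, without Atp7b, and Hpx and Slc11a2 were higher in Adm+/- LPS. The same 5 were called without WT PBS replicate 5 and Adm+/- PBS replicate 6 together, and without WT PBS replicate 5 alone. When single libraries were left out this count was 1 to 5, with only Cd163 called without Adm+/- LPS replicate 1, 2 or 12. Slc39a14 after LPS in WT mice, described without a test, was at 1.70 with only the 6 libraries compared, and Mt1 between genotypes after LPS, at 1.24, was called by DESeq2. Over the unshared bases the Mt2 level in Adm+/- LPS was 82.4 CPM per kb.

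Gm45774 is described without a test. Its log2 fold change after LPS in WT mice was 2.06 by glmTreat, 1.77 by limma-voom, 1.91 without both doubted libraries and 1.79 to 2.45 over single libraries left out. Its interaction was 5.02 by DESeq2 and 4.39 to 5.11 over single libraries left out, and its difference between genotypes after LPS ranged from 1.77 to 2.44.

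Some log2 fold changes near 0, none of them called, changed sign. Without both doubted libraries Tfrc was −0.075 after LPS in WT mice, −0.049 in Adm+/- mice and 0.026 in the interaction, and Hmox1 was 0.14 in the interaction and −0.12 between genotypes after PBS. Hmox1 was −0.00054 between genotypes after LPS with only those 6 libraries, and by limma-voom Mt2 was 0.088 and Fth1 0.0050 between genotypes after PBS. When single libraries were left out, Tfrc after LPS ranged from −0.075 to 0.39 in WT and −0.057 to 0.21 in Adm+/- mice. Between genotypes after PBS the ranges were −0.27 to 0.18 for Mt1, −0.36 to 0.091 for Slc39a14, −0.19 to 0.15 for Slc30a1, −0.11 to 0.29 for Hmox1, −0.22 to 0.11 for Fth1, −0.020 to 0.35 for Slc40a1 and −0.043 to 0.42 for Tfrc. In the interaction they were −0.10 to 0.26 for Slc30a1, −0.29 to 0.23 for Hmox1 and −0.34 to 0.13 for Tfrc. Between genotypes after LPS they were −0.030 to 0.13 for Slc30a1, −0.18 to 0.29 for Hmox1 and −0.17 to 0.25 for Slc11a1.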
